A study of Mus musculus with 26 samples.

Results

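The comparison described here is that of brown adipose tissue (BAT) from fat-specific Afadin knockout (FAKO) mice with BAT from control littermates (CTRL), both kept at thermoneutrality. It holds 14 of the 26 RNA-sequencing libraries of the series, 1 library per mouse, chosen by the group in the sample labels. The 7 CTRL mice are labelled WT and the 7 FAKO mice KO. All were male C57BL/6J mice of 12 to 16 weeks kept for 2 weeks at thermoneutrality, which the methods give as 29 °C and the labels as 30 °C, and whose supraclavicular BAT was collected with no cold exposure. FAKO mice carry Mllt4 flox/flox alleles and Adiponectin-Cre, in which regulatory sequence of the adiponectin gene drives Cre in adipocytes of all fat depots. Cre is not expected in the vessels, stroma, nerves and blood cells of the tissue. Whether CTRL mice carried the floxed alleles or the Adiponectin-Cre transgene is not given in the sources used here. If CTRL mice lacked the transgene, carrying it and losing Afadin cannot be told apart in this comparison. The 12 other libraries are from 5 CTRL mice and 7 FAKO mice given the same 2 weeks and then 6 h at 5 °C. They are part of the same fit, and so bear on which genes were tested and on the p-values at thermoneutrality. Otherwise they only show how the genes found at thermoneutrality behaved in other animals of the same genotypes.

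Afadin is a scaffold protein of adherens junctions that binds nectins and actin, and the gene is Afdn in current nomenclature (formerly Mllt4). Brown adipocytes burn fatty acids and glucose in mitochondria uncoupled by Ucp1. At thermoneutrality sympathetic drive to BAT is low, so that the tissue is in its least active state.

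Values are normalised counts (CPM, scaled with TMM factors), and the differences are log2 fold changes of FAKO over CTRL from 1 edgeR quasi-likelihood model of all 26 mice, with Benjamini-Hochberg adjusted p-values and a threshold of 0.05. Total counts ran from 12705969 to 18262061 in CTRL mice and from 15794079 to 17631956 in FAKO mice. Ucp1, the uncoupling protein that defines brown fat, had 652 to 1292 CPM in CTRL mice and 551 to 1052 CPM in FAKO mice, and Cidea and Adipoq were also detected in every mouse. CTRL mouse 7 stood apart. Mitochondrial rRNA took 8.99% of its counts, against 25.3 to 32.6% in the other CTRL mice. Its summed skeletal muscle markers reached 13985 CPM, against at most 3615 CPM in the other CTRL mice and 3897 CPM in FAKO mice. Values without this mouse are given beside the results it moved most.

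Afdn itself was not lower at thermoneutrality in the libraries labelled FAKO. The gene (ENSMUSG00000068036.14) lies on mm10 at chr17:13760539-13906150. In normalised counts, CTRL mice had 151 to 214 CPM (median 200.03) and mice labelled FAKO 154 to 231 CPM (median 204). The ranges overlapped almost entirely. The log2 fold change was -0.012 (SE 0.080, adjusted p = 0.992), with a 95% interval of -0.18 to 0.15. With CTRL mouse 7 left out, which had the lowest level of the CTRL mice, it was -0.048 (SE 0.075, adjusted p = 0.891). After cold, in other animals, the libraries labelled FAKO all lay below those of CTRL mice. There, CTRL mice had 67.9 to 79.2 CPM (median 73.7) and mice labelled FAKO 53.3 to 65.3 CPM (median 57.9), and the log2 fold change was -0.33 (SE 0.088, adjusted p = 0.116), which did not pass the threshold. The difference between the temperatures did not pass either (edgeR, adjusted p = 0.179). Which exons are floxed is not given in the sources used here, and a count over the whole gene does not show the loss of single exons. In bulk tissue, fewer cells of a type and less RNA per cell cannot be told apart. Because Afdn at thermoneutrality gave no check of the genotype, the mice are referred to by their labels. None of the 4 tested genes within 200 kb of Afdn had an unadjusted p below 0.05, among them Tcte2 on the opposite strand, at 0.0020 (95% interval -0.44 to 0.45).

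Of the 17286 genes tested, 14 (0.081%) passed the threshold, 10 higher (0.0579%) and 4 lower (0.0231%) in mice labelled FAKO. At an unadjusted p below 0.05 there were 663 higher (3.84%) and 659 lower (3.81%). All 7 mice labelled FAKO lay above all 7 CTRL mice for 30 genes (0.174%) and below them for 13 (0.0752%), or 43 in all (0.249%). The differences were small across the transcriptome. Among the 14230 tested genes with a mean of at least 1 CPM, 17 had an absolute log2 fold change over 1 and 318 over 0.5, and the SD of the log2 fold changes was 0.19. The 95% interval lay wholly within a log2 fold change of 0.5 either side of 0 for 61.6% of all tested genes and within 1 for 90.1%. For the 8164 genes with at least 10 CPM these shares were 92.7% and 98.8%, so that for most well expressed genes a change of that size lay outside the interval.

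**Figure D1:**
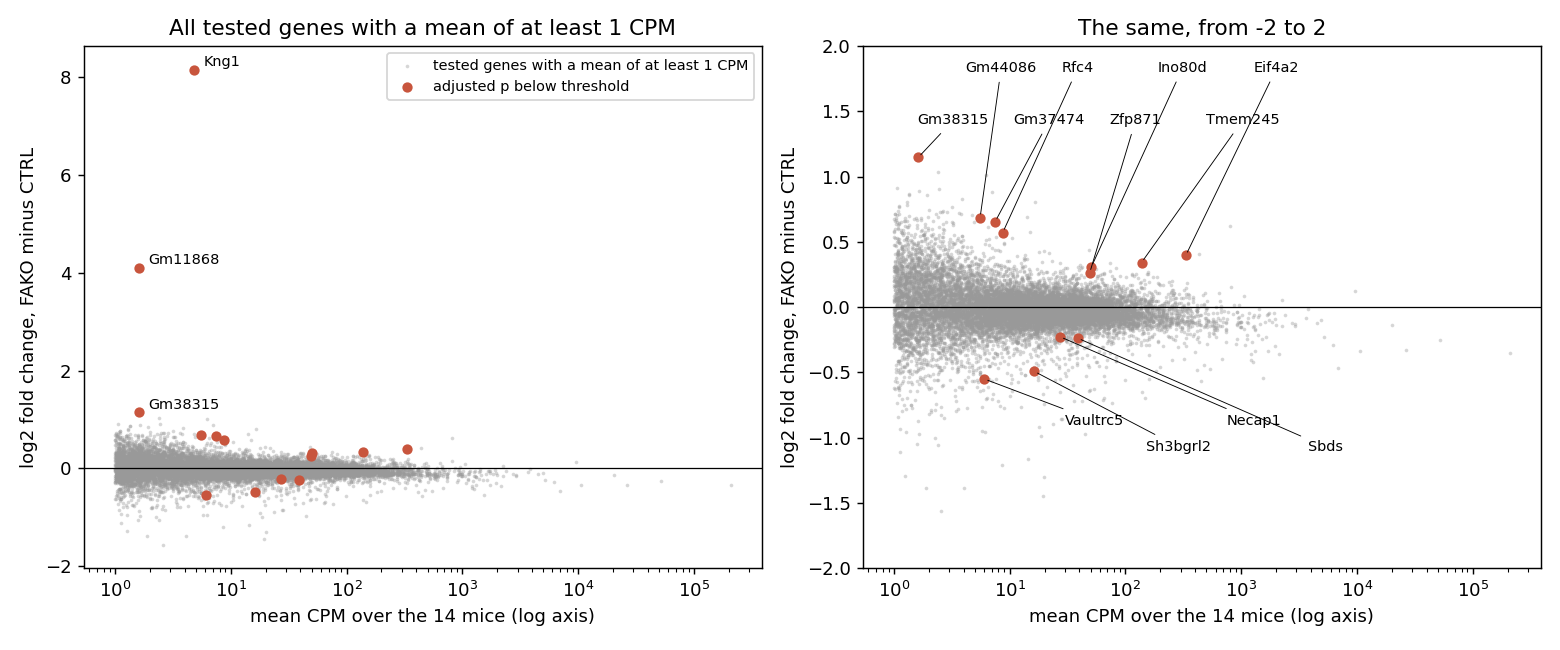
Log2 fold change of mice labelled FAKO over CTRL mice (y axis) against the mean CPM of the 14 mice on a log axis for every tested gene with a mean of at least 1 CPM, with the 14 genes past the threshold in red and the same data enlarged on the right. Kng1 at 8.16 and Gm11868 at 4.11 stand far above all other genes, and the other 12 lie between -0.55 and 1.15.

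Once CTRL mouse 7 was left out, 93 of 17193 tested genes passed (0.541%), 62 higher (0.361%) and 31 lower (0.18%), and these held 13 of the 14 genes. At an unadjusted p below 0.05 there were then 1052 higher (6.12%) and 792 lower (4.61%). Necap1 did not pass, and Gm6493, next to Adipoq, was among those gained. The groups did not overlap for 11 of the 14 genes, against the 0.249% of all tested genes, but the same values chose the 14. With each other mouse left out in turn, 7 to 13 genes passed.

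**Figure D2:**
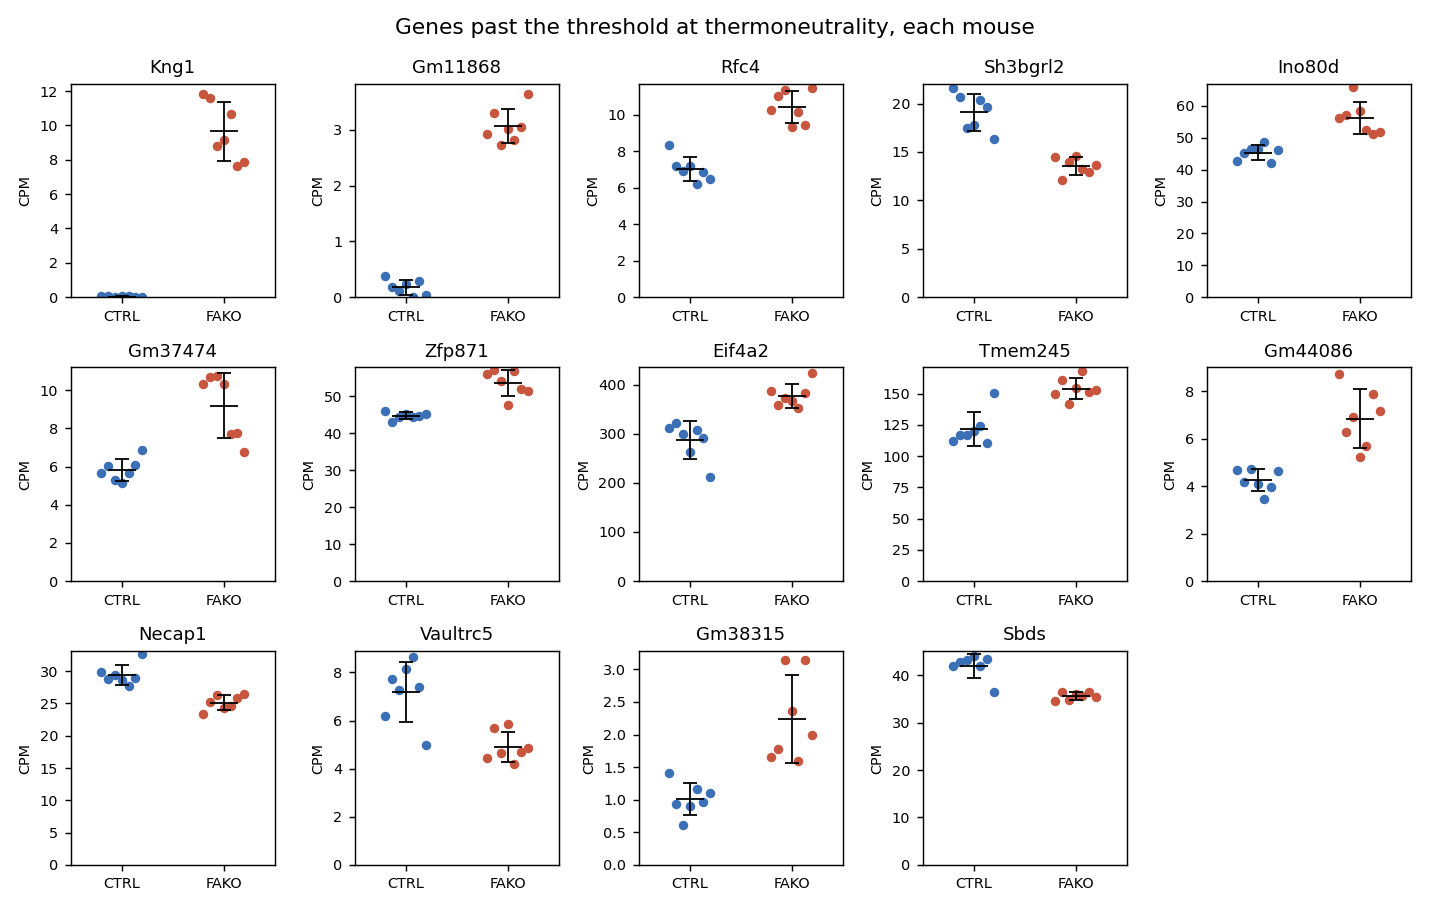
CPM of each of the 7 CTRL and 7 FAKO-labelled mice for the 14 genes past the threshold, with the mean and SD as bars. The groups do not overlap for 11 genes, and for Gm37474, Tmem245 and Vaultrc5 they do.

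The largest difference was in Kng1, the gene for kininogen, the liver-made precursor of bradykinin. Kng1 (ENSMUSG00000022875.17, chr16:23057865-23082078, plus strand) had 0 or 1 count in each CTRL mouse, 4 in all 7, and between 148 and 229 counts in each mouse labelled FAKO, 1290 in all. Scaled for depth, CTRL mice had 0 to 0.0773 CPM (median 0.0604) and mice labelled FAKO 7.64 to 11.8 CPM (median 9.14). The log2 fold change was 8.16 (SE 0.76, adjusted p = 9.35e-14). After cold, in other animals, it was 10.40 (adjusted p = 1.79e-13). Of the kinin list of 7 tested genes, which includes the inhibitor Serping1, Kng1 alone passed the threshold. The neighbouring paralogue Kng2 had 0.21 (95% interval -0.056 to 0.47), with overlapping groups. After cold Kng2 passed the threshold, at 0.72 (SE 0.14, adjusted p = 0.0332), and the groups did not overlap. The difference between the temperatures did not pass (adjusted p = 0.177). Of the 3243 stretches of 100 bases, the length of a read, in Kng1 transcripts, 4.93% also occur in Kng2.

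Kng1 starts at -88.7 kb from the start of Adipoq on chromosome 16, and 2 more of the 14 genes lie in the same stretch. Eif4a2, an RNA helicase of translation initiation (chr16:23107444-23114136, plus strand), starts at -39.1 kb. Rfc4, a subunit of the clamp loader that places PCNA on DNA (chr16:23113943-23127737, minus strand), starts at -18.8 kb. For Eif4a2, CTRL mice had 212 to 322 CPM (median 299.9) and mice labelled FAKO 352 to 424 CPM (median 372). For Rfc4, CTRL mice had 6.18 to 8.31 CPM (median 6.92) and mice labelled FAKO 9.32 to 11.4 CPM (median 10.2). Neither gene's groups overlapped. The log2 fold changes were 0.40 (SE 0.071, adjusted p = 0.0158) and 0.57 (SE 0.082, adjusted p = 0.000982). After cold they were 0.56 (SE 0.078, adjusted p = 0.000633) and 0.74 (SE 0.092, adjusted p = 0.000122), the same direction in other animals. Eif4a2 and Rfc4 overlap at their 3' ends on opposite strands. The libraries keep strand, but the counting option is not given in the sources used here, and 95 of the 1636 stretches of 100 bases of Rfc4 are the reverse complement of Eif4a2 sequence.

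Of the 19 genes listed within 200 kb of Adipoq, 10 were tested and 5 were higher at an unadjusted p below 0.05, against 3.84% of all tested genes, and none was lower. The 2 not past the threshold were Gm6493, a processed pseudogene within Kng2 on the same strand (1.04, SE 0.22, adjusted p = 0.0671), and B630019A10Rik, an antisense gene (1.47, SE 0.42, adjusted p = 0.260). For Gm6493, CTRL mice had 0.775 to 2.47 CPM (median 1.30) and mice labelled FAKO 1.86 to 5.07 CPM (median 3.18). Without CTRL mouse 7 Gm6493 passed, at 1.10 (SE 0.24, adjusted p = 0.0278), and 20.2% of its stretches of 100 bases also occur in Tnpo1. Adipoq, the adipocyte hormone gene at the centre of the window, had -0.086 (SE 0.10, adjusted p = 0.917), and St6gal1, a sialyltransferase on its far side, had -0.11 (SE 0.071, adjusted p = 0.755). The differences did not extend to every gene of the window.

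**Figure D3:**
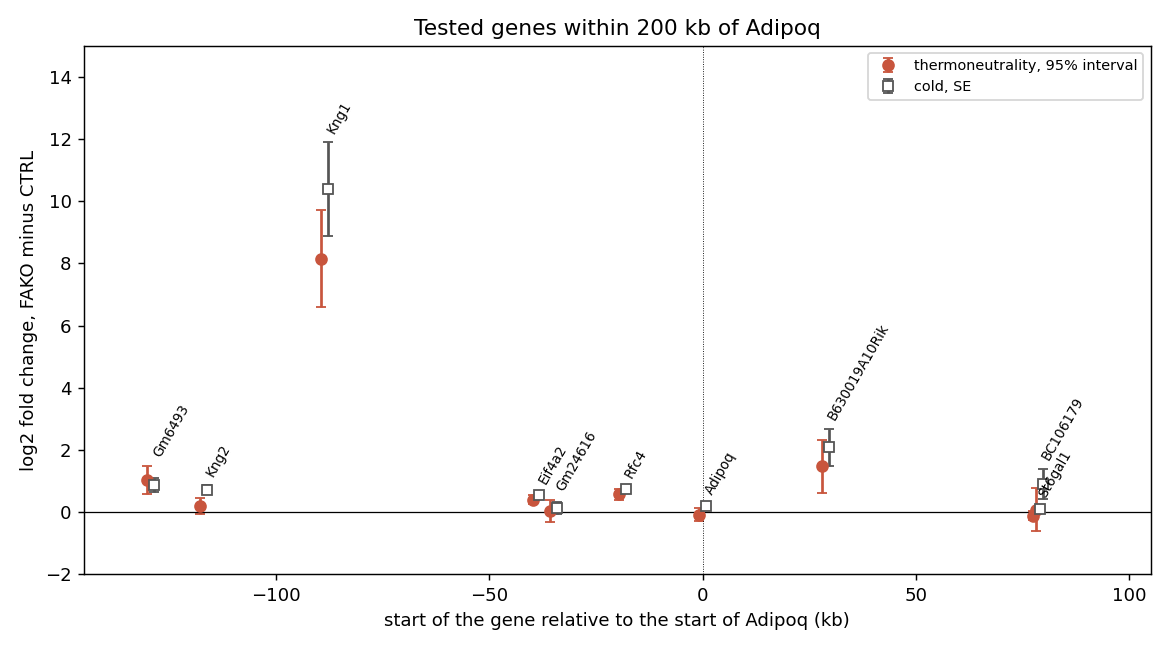
Log2 fold change of mice labelled FAKO over CTRL mice for the 10 tested genes within 200 kb of Adipoq, against the distance of their start from that of Adipoq in kb. Filled circles are thermoneutrality with 95% intervals and open squares are cold with SE. Kng1 stands highest at both temperatures, and Eif4a2, Rfc4, Kng2, Gm6493, B630019A10Rik, BC106179 and Gm24616 are above 0 at both. Adipoq at -0.086 and St6gal1 at -0.11 are below 0 at thermoneutrality.

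The promoters of Eif4a2 and Rfc4, which with Kng1 were the 3 genes of the window past the threshold, and of Adipoq, which was not, are shown for comparison, as the 300 bases around the start (250 before and 50 after) from RefSeq on GRCm38.p6. Capitals mark GGGCGG, the GC box, and CCAAT, each on either strand.
Eif4a2, chr16:23107218-23107517, plus strand: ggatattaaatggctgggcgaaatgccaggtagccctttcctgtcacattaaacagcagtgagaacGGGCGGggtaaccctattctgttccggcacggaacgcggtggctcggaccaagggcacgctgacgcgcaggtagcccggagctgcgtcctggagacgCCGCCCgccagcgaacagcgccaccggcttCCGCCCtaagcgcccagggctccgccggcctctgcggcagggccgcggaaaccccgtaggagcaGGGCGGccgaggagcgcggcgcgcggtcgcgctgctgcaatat
Rfc4, chr16:23127681-23127980, minus strand: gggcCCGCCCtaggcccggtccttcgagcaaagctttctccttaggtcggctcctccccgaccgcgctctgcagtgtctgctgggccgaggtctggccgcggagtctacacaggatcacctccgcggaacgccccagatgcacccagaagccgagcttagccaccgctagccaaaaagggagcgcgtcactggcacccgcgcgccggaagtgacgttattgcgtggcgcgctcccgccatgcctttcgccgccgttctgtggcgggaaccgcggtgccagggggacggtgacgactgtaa
Adipoq, chr16:23146286-23146585, plus strand: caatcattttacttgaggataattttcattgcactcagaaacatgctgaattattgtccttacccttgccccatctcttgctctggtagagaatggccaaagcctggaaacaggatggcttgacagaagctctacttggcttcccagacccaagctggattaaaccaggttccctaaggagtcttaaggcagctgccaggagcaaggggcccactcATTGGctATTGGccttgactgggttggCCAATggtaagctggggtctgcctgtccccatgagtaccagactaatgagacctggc
GGGCGG occurs 4 times in the Eif4a2 window, once in that of Rfc4 and not in that of Adipoq, and in 35.7% of all 32851 promoters. CCAAT occurs 3 times in the Adipoq window and in neither of the others, and in 37.4% of all promoters. TATAAA (13.6% of all promoters), AGGTCA (16.3%) and TGACGTCA (1.79%) were also searched on both strands and are in none of the 3 windows. The motifs do not overlap one another. The table holds no promoter of Kng1.

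The second largest difference was in Gm11868, a processed pseudogene of Cyb5r4 on chromosome 4 (ENSMUSG00000050550.7, chr4:18844202-18845679, minus strand). Cyb5r4 encodes a cytochrome b5 reductase and lies on chromosome 9. Gm11868 had 0 to 6 counts in each CTRL mouse and 47 to 73 in each mouse labelled FAKO. Scaled for depth, CTRL mice had 0 to 0.387 CPM (median 0.187) and mice labelled FAKO 2.74 to 3.65 CPM (median 3.01). The log2 fold change came to 4.11 (SE 0.33, adjusted p = 5.71e-10). After cold it was 3.83 (SE 0.31, adjusted p = 7.45e-09). Cyb5r4 went the other way without passing the threshold, at -0.26 (SE 0.083, adjusted p = 0.393). For Cyb5r4, CTRL mice had 19.2 to 25.2 CPM (median 23.2) and mice labelled FAKO 17.0 to 24.0 CPM (median 19.1).

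Because reads could be split between the copies, the sequences were aligned. The 1478 bases of Gm11868 matched the spliced Cyb5r4 transcript at 1455 positions (98.4%), with 23 substitutions and 7 gap bases. Of the 1379 stretches of 100 bases in Gm11868, 164 (11.9%) are identical in Cyb5r4, so that most such stretches of Gm11868 carry at least 1 difference. The 100 coding bases with the most substitutions are shown from the GENCODE M21 transcripts, numbered from the start of each transcript, with the 4 differing bases in capitals.
Gm11868, bases 50 to 149: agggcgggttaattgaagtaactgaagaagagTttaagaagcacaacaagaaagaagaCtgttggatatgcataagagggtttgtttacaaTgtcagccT
Cyb5r4, bases 317 to 416: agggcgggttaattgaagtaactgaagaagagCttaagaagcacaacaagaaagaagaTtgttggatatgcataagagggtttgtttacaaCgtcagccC
The reads themselves were not used here, so whether those counted for Gm11868 carry its own bases was not tested.

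Sh3bgrl2, which encodes an SH3-binding glutamate-rich protein, had the largest decrease among the protein-coding genes past the threshold. It (ENSMUSG00000032261.16) lies at chr9:83548327-83638801. For this gene, CTRL mice had 16.4 to 21.6 CPM (median 19.6) and mice labelled FAKO 12.1 to 14.6 CPM (median 13.7), and the groups did not overlap. The log2 fold change was -0.49 (SE 0.071, adjusted p = 0.000982). After cold it had the same sign without passing, at -0.34 (SE 0.076, adjusted p = 0.0732). Sh3bgrl2 lies within 4 Mb of Cyb5r4, a window looked at after its values were seen. Of 48 tested genes there, 4 were lower and 1 higher at an unadjusted p below 0.05, close to the background of 7.65% in either direction. They include Me1, malic enzyme, at -0.70 (SE 0.25, adjusted p = 0.442), Tbx18, a transcription factor of mesenchymal progenitors, at -0.56 (SE 0.14, adjusted p = 0.213), and Bckdhb, a subunit of the branched-chain ketoacid dehydrogenase, at 0.33 (SE 0.088, adjusted p = 0.224). Me1 was -0.50 (SE 0.24, adjusted p = 0.460) without CTRL mouse 7.

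Ino80d, Sbds, Necap1 and the Rfc4 and Eif4a2 described above each passed without any other tested gene of their complex or list. Ino80d is a subunit of the INO80 chromatin remodeller. For it, CTRL mice had 42.0 to 48.7 CPM (median 46.2) and mice labelled FAKO 51.3 to 65.8 CPM (median 56.1), with no overlap, and it rose by 0.31 on the log2 scale (SE 0.053, adjusted p = 0.0140). Of the 15 tested INO80 genes it was the only one to pass, and the median was 0.0078. Sbds releases eIF6 from new large ribosomal subunits. For it, CTRL mice had 36.5 to 44.1 CPM (median 42.8) and mice labelled FAKO 34.5 to 36.4 CPM (median 35.7), and the log2 fold change was -0.24 (SE 0.048, adjusted p = 0.0494). It passed in 1 of the 14 fits that left out a mouse, and of 20 tested ribosome assembly factors it alone passed. Necap1 binds clathrin adaptors. For it, CTRL mice had 27.7 to 32.6 CPM (median 28.9) and mice labelled FAKO 23.4 to 26.4 CPM (median 25.2), and the log2 fold change was -0.23 (SE 0.045, adjusted p = 0.0458). With CTRL mouse 7 left out it was -0.18 (SE 0.044, adjusted p = 0.0537) and did not pass. It passed in 2 of the 14 fits that left out a mouse, and the median of 20 clathrin adaptor genes was -0.043. Rfc4 was likewise the only 1 of 10 clamp loader genes to pass (median -0.060), and Eif4a2 the only 1 of 15 genes of the initiation factor 4 complex (median -0.043).

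Zfp871, a zinc finger protein, rose by 0.26 on the log2 scale (SE 0.047, adjusted p = 0.0158). For Zfp871, CTRL mice had 42.9 to 46.0 CPM (median 44.6) and mice labelled FAKO 47.7 to 57.1 CPM (median 54.2). Tmem245, a membrane protein, rose by 0.34 (SE 0.062, adjusted p = 0.0160). For Tmem245, CTRL mice had 111 to 151 CPM (median 117) and mice labelled FAKO 142 to 168 CPM (median 152). Its highest CTRL mouse was mouse 7, and without it the log2 fold change was 0.42 (SE 0.055, adjusted p = 0.000249). Vaultrc5, a vault RNA on chromosome 18, differed in log2 by -0.55 (SE 0.11, adjusted p = 0.0463). For Vaultrc5, CTRL mice had 5.00 to 8.65 CPM (median 7.37) and mice labelled FAKO 4.18 to 5.84 CPM (median 4.70), and the lowest CTRL mouse was again mouse 7. The 3 remaining genes are of GENCODE's class TEC, gene models without experimental proof, and each lies on the same strand inside an intron of a larger gene, with no base in its exons. Gm37474 in Fli1, an endothelial and blood transcription factor, had 0.66 (SE 0.12, adjusted p = 0.0158), Gm44086 in Itpr2, a calcium channel of the endoplasmic reticulum, 0.69 (SE 0.13, adjusted p = 0.0214), and Gm38315 in Esrrg, an oestrogen-related receptor, 1.15 (SE 0.23, adjusted p = 0.0494). For Gm37474, CTRL mice had 5.14 to 6.88 CPM (median 5.67) and mice labelled FAKO 6.74 to 10.8 CPM (median 10.3). For Gm44086, CTRL mice had 3.48 to 4.71 CPM (median 4.18) and mice labelled FAKO 5.25 to 8.75 CPM (median 6.93). For Gm38315, CTRL mice had 0.609 to 1.42 CPM (median 0.964) and mice labelled FAKO 1.6 to 3.15 CPM (median 2.00). The host genes did not pass the threshold, at 0.17 for Fli1, 0.0059 for Itpr2 and 0.14 for Esrrg.

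The TEC class as a whole lay above the other genes. Of 961 tested TEC models, 766 (79.7%) had a log2 fold change above 0, against 44.0% of all tested genes, and the median was 0.23 against -0.020. At an unadjusted p below 0.05, 188 were higher and 4 lower, against 3.84% and 3.81% of all tested genes. The 123 sense-intronic genes, which lie in introns on the strand of their host, had a median of 0.21, with 22 higher and 0 lower. Antisense genes had a median of 0.14 and protein-coding genes of -0.033. Small nucleolar RNAs, which guide modification of rRNA, went the other way. Of 83 tested, 18 were above 0, 15 were lower at an unadjusted p below 0.05 and the median was -0.21. Once CTRL mouse 7 was left out, 28 of 83 were lower at that p, against 4.61% of all genes then tested. With library size alone as the scaling, the median of all genes moved to 0.13, that of the TEC class to 0.37 and that of small nucleolar RNAs to -0.040.

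Mouse by mouse, TEC and sense-intronic models together took 0.232, 0.272 and 0.331% of the counts in the lowest, median and highest CTRL mice and 0.331, 0.346 and 0.367% in those labelled FAKO. By this share the highest CTRL mouse was mouse 7, and it alone reached the lowest of the mice labelled FAKO. Exact permutation gave p = 0.00117, two-sided, and 0.00427 when adjusted by Benjamini-Hochberg over 11 library measures. In CPM, these models had 2481 to 2896 in CTRL mice and 2843 to 3381 in mice labelled FAKO, with the same p-values by that test. CTRL mouse 7 then had 2568 CPM, below the CTRL median of 2743. The nuclear RNA Malat1 took 0.843 to 1.05% of counts in CTRL mice and 1.06 to 1.18% in those labelled FAKO, with no overlap (p = 0.000583 by the same exact test, the smallest that 7 mice against 7 can give, and 0.00427 when adjusted). In CPM, Malat1 differed in log2 by 0.12 (SE 0.079, adjusted p = 0.770 by edgeR over all tested genes). The exact test on the CPM of Malat1 gave p = 0.0181, and 0.0397 when adjusted over the 11 library measures. Neat1, the scaffold RNA of nuclear paraspeckles, had 479, 607 and 1016 CPM in the lowest, median and highest CTRL mice and 784, 933 and 1234 CPM in those labelled FAKO. Its log2 fold change was 0.62 (SE 0.17, adjusted p = 0.270 by edgeR), and 0.79 (SE 0.16, adjusted p = 0.0223) without CTRL mouse 7. With all mice, the exact test on the CPM of Neat1 gave p = 0.00466, and 0.0128 when adjusted over the 11 library measures. Malat1 was chosen after its values were seen and Neat1 as an extreme of its list. The adjustment over 11 measures does not cover that choice. The share of mitochondrial rRNA, from 17.4 to 31.4% in mice labelled FAKO, and the total counts gave p = 0.426 and p = 0.828 by exact permutation. The list of nuclear-retained long noncoding RNAs had 4 higher and 1 lower of 13 tested at an unadjusted p below 0.05. Of all tested genes, 3.84% were higher and 3.81% lower at that p. Whether the share of intronic and nuclear RNA has a part in the differences of the TEC genes was not tested.

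**Figure D4:**
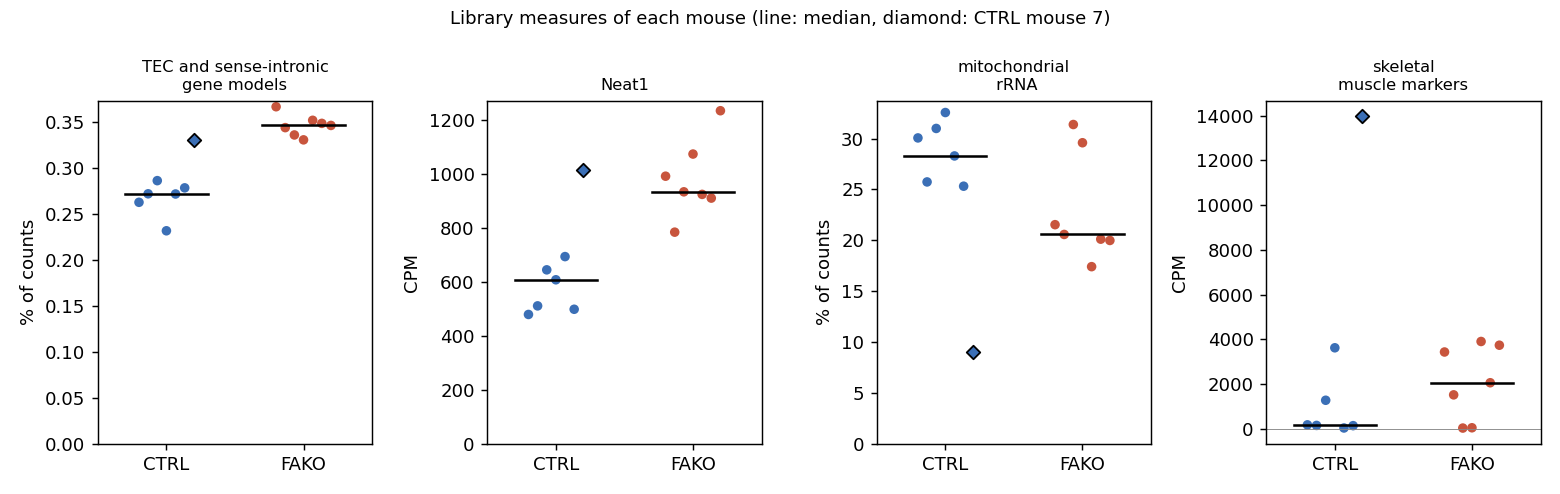
Values of each of the 7 CTRL and 7 FAKO-labelled mice for the percentage of counts in TEC and sense-intronic gene models, the CPM of Neat1, the percentage of counts in mitochondrial rRNA and the summed CPM of 16 skeletal muscle marker genes, with the median as a line. CTRL mouse 7 (diamond) is the highest CTRL mouse for the percentage in TEC models, Neat1 and muscle markers and the lowest for mitochondrial rRNA at 8.99%.

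Without CTRL mouse 7, many of the genes past the threshold were of these classes, and the counts include the 13 genes that also passed with all mice. Of the 62 genes then higher, 24 were TEC or sense-intronic models and 24 protein-coding, and of the 31 lower, 22 were small nucleolar, small nuclear, Cajal body or other small noncoding RNAs and 9 protein-coding. For comparison, the 17193 genes tested held 948 TEC models, 119 sense-intronic, 83 small nucleolar, 46 small nuclear, 12 Cajal body and 42 other small noncoding RNAs and 13628 protein-coding genes. Among those lower were Snora57, a small nucleolar RNA, at -0.93 (SE 0.15, adjusted p = 0.00255), Scarna6, which guides modification of spliceosomal RNA, at -0.46 (SE 0.074, adjusted p = 0.00240), and Rn7sk, the 7SK RNA that holds back P-TEFb, at -0.32 (SE 0.048, adjusted p = 0.000963). With all mice Rn7sk had -0.29 (SE 0.062, adjusted p = 0.0704). For Rn7sk, CTRL mice had 5294 to 7664 CPM (median 6957) and mice labelled FAKO 5183 to 5865 CPM (median 5630.5). Among protein-coding genes, the deubiquitinase Usp34 had 0.32 (SE 0.044, adjusted p = 0.000316) and the BMP receptor Bmpr2 0.25 (SE 0.053, adjusted p = 0.0230). The 2 Epac genes, cAMP-activated exchange factors for Rap, were Rapgef3 at 0.38 (SE 0.090, adjusted p = 0.0496) and Rapgef4 at 0.76 (SE 0.16, adjusted p = 0.0231), against 0.29 (SE 0.10, adjusted p = 0.419) and 0.56 (SE 0.18, adjusted p = 0.380) with all mice. Cytochrome c, Cycs, had -0.26 (SE 0.055, adjusted p = 0.0240) and mt-Co1, a subunit of complex IV encoded by the mitochondrial genome, -0.34 (SE 0.075, adjusted p = 0.0313), against -0.22 (SE 0.066, adjusted p = 0.311) and -0.25 (SE 0.11, adjusted p = 0.607) with all mice. These genes were chosen after their values were seen, except Rn7sk and Bmpr2, which were among the 5 with the smallest p that did not pass in their direction, and Rapgef4, an extreme of its list.

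For the genes that define brown fat, no difference passed the threshold with or without CTRL mouse 7. Of the 28 tested genes of thermogenesis and brown identity, 0 had an unadjusted p below 0.05, against 7.65% of all tested genes, and the median was -0.057. With CTRL mouse 7 left out, 0 higher and 3 lower were below that p, Ucp1 among the lower, against 10.7% of all genes then tested. For Ucp1, CTRL mice had 652 to 1292 CPM (median 1004) and mice labelled FAKO 551 to 1052 CPM (median 813). Its log2 fold change was -0.28 (SE 0.14, adjusted p = 0.653) with an interval of -0.57 to 0.0065, and -0.34 (SE 0.13, adjusted p = 0.322) without CTRL mouse 7. Intervals were narrow for Cidea, a lipid droplet protein of brown fat (-0.045, -0.24 to 0.15), and for the adipocyte regulator Pparg (0.021, -0.12 to 0.16). They were wider for the coactivator Ppargc1a (0.14, -0.24 to 0.51) and for Prdm16, a determinant of brown fate (-0.12, -0.40 to 0.16). For Dio2, the deiodinase that activates thyroid hormone, the interval ran from -0.61 to 1.17, and for the elongase Elovl3 from -0.60 to 2.11. The 2 genes were scarce or varied widely between mice, and an increase of 2-fold lay inside both intervals. Of 25 adipocyte core genes, 3 were lower at an unadjusted p below 0.05 and 0 passed the threshold. Genes of lipogenesis and triglyceride synthesis had 0 higher and 3 lower of 28 at that p, and 1 higher and 2 lower without CTRL mouse 7, and none passed in either. The fatty acid binding protein Fabp4 had -0.083 (-0.22 to 0.053).

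The lists for junctions and signalling gave no gene past the threshold with all mice. Once CTRL mouse 7 was left out, Rapgef3 and Rapgef4 of the adrenergic and cAMP list passed, as given above. Of all tested genes, 7.65% had an unadjusted p below 0.05 in either direction, and 10.7% without CTRL mouse 7. Of 27 tested adherens junction and nectin-afadin genes, 1 was higher and 0 lower at an unadjusted p below 0.05 (median 0.021), and 23 had intervals within 0.5 either side of 0. Of 30 insulin signalling genes 0 were below that p in either direction (median -0.025). Without CTRL mouse 7 there were 1 higher and 1 lower, and 1 higher and 1 lower among the 28 junction genes then tested. The insulin receptor Insr had 0.11 (-0.071 to 0.29), and Irs2, its substrate, had -0.63 (-1.28 to 0.024). Without CTRL mouse 7 Irs2 was the 1 lower insulin signalling gene, at -0.76 (-1.39 to -0.14, adjusted p = 0.345). Of 31 Notch genes 0 were below an unadjusted p of 0.05 (median 0.017), and without CTRL mouse 7 there were 1 higher and 0 lower. Of 34 adrenergic and cAMP genes 2 were higher and 1 lower, which became 2 higher and 3 lower without that mouse, and the receptor gene Adrb3 had 0.11 (-0.32 to 0.55). Of 22 lipolysis and lipid droplet genes 1 was lower, Lipe, hormone-sensitive lipase, at -0.22 (SE 0.10, adjusted p = 0.599). Without that mouse there were 1 higher and 0 lower.

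Genes of energy metabolism and of cytosolic ribosomal proteins lay slightly below 0, as earlier results of these data had shown, and with all mice 0 passed the threshold in any of these lists. With CTRL mouse 7 left out, 1 gene passed in each of 3 of them, Cycs and mt-Co1 as given above and Ldhd, a lactate dehydrogenase for the D isomer, at -0.23 (SE 0.052, adjusted p = 0.0384). The choice of Ldhd was made with its values known. For nuclear-encoded oxidative phosphorylation 77 of 80 tested genes were below 0, 30 at an unadjusted p below 0.05, against 3.81% of all genes. The median was -0.13, against -0.033 for all protein-coding genes and -0.067 for tested genes with a mean of at least 100 CPM. Of the 80 intervals, 77 lay within 0.5 either side of 0. For cytosolic ribosomal proteins 75 of 76 were below 0, 46 at an unadjusted p below 0.05, with a median of -0.13. With DESeq2 1 of the 76 passed. The ribosomal protein Rpl21 was among the 5 lower genes with the smallest p that did not pass. For Rpl21, CTRL mice had 81.9 to 88.3 CPM (median 84.3) and mice labelled FAKO 69.6 to 79.2 CPM (median 73.2), and the log2 fold change was -0.19 (SE 0.044, adjusted p = 0.132). For pyruvate and citrate cycle enzymes 12 of 39 were lower at that p (median -0.12), for glycolysis and gluconeogenesis 7 of 35 (median -0.11) and for fatty acid uptake and oxidation 2 of 36 (median -0.11). Protein-coding genes of the mitochondrial genome had 0 higher and 1 lower of 8 (median -0.26, and -0.40 without CTRL mouse 7). Without that mouse the counts became 0 higher and 10 lower for fatty acid uptake and oxidation and 0 higher and 5 lower for the mitochondrial genome. The corresponding counts of lower genes were 35 for oxidative phosphorylation, 37 for ribosomal proteins, 17 for pyruvate and citrate cycle enzymes and 9 for glycolysis. Of all genes then tested, 4.61% were lower at an unadjusted p below 0.05. Without CTRL mouse 7 the median of oxidative phosphorylation was -0.13 and that of ribosomal proteins -0.12, while that of glycolysis was -0.045. Scaled by library size only, which put all tested genes at a median of 0.13, the medians were 0.027, 0.020 and 0.012. These lists then lay above 0 but remained below the median of all genes.

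Immediate early genes, which respond within minutes to stimulation, had the lowest median of the lists with at least 7 tested genes, at -0.57. Of 22 tested, 1 was above 0 and 0 passed the threshold. At an unadjusted p below 0.05, 5 were lower, against 3.81% of all tested genes. They varied widely within both groups. For Fos, CTRL mice had 0.872 to 59.8 CPM (median 20.6) and mice labelled FAKO 1.36 to 30.1 CPM (median 8.38). For Egr1, CTRL mice had 1.70 to 73.4 CPM (median 38.8) and mice labelled FAKO 2.58 to 40.4 CPM (median 13.9). The groups overlapped for both. For Fosb, CTRL mice had 0.413 to 9.91 CPM (median 3.25) and mice labelled FAKO 0.141 to 4.90 CPM (median 0.640), at -1.56 (SE 0.69, adjusted p = 0.595). Once CTRL mouse 7 was left out, 14 of the 22 had an unadjusted p below 0.05, all lower, against 4.61% of all genes then tested. Of the 22, 0 passed the threshold (median -0.72). Heat shock chaperones had 0 of 22 genes at that p with all mice, and clock genes 0 higher and 1 lower of 21. Without CTRL mouse 7 these lists had 0 higher and 1 lower and 1 higher and 2 lower.

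**Figure D5:**
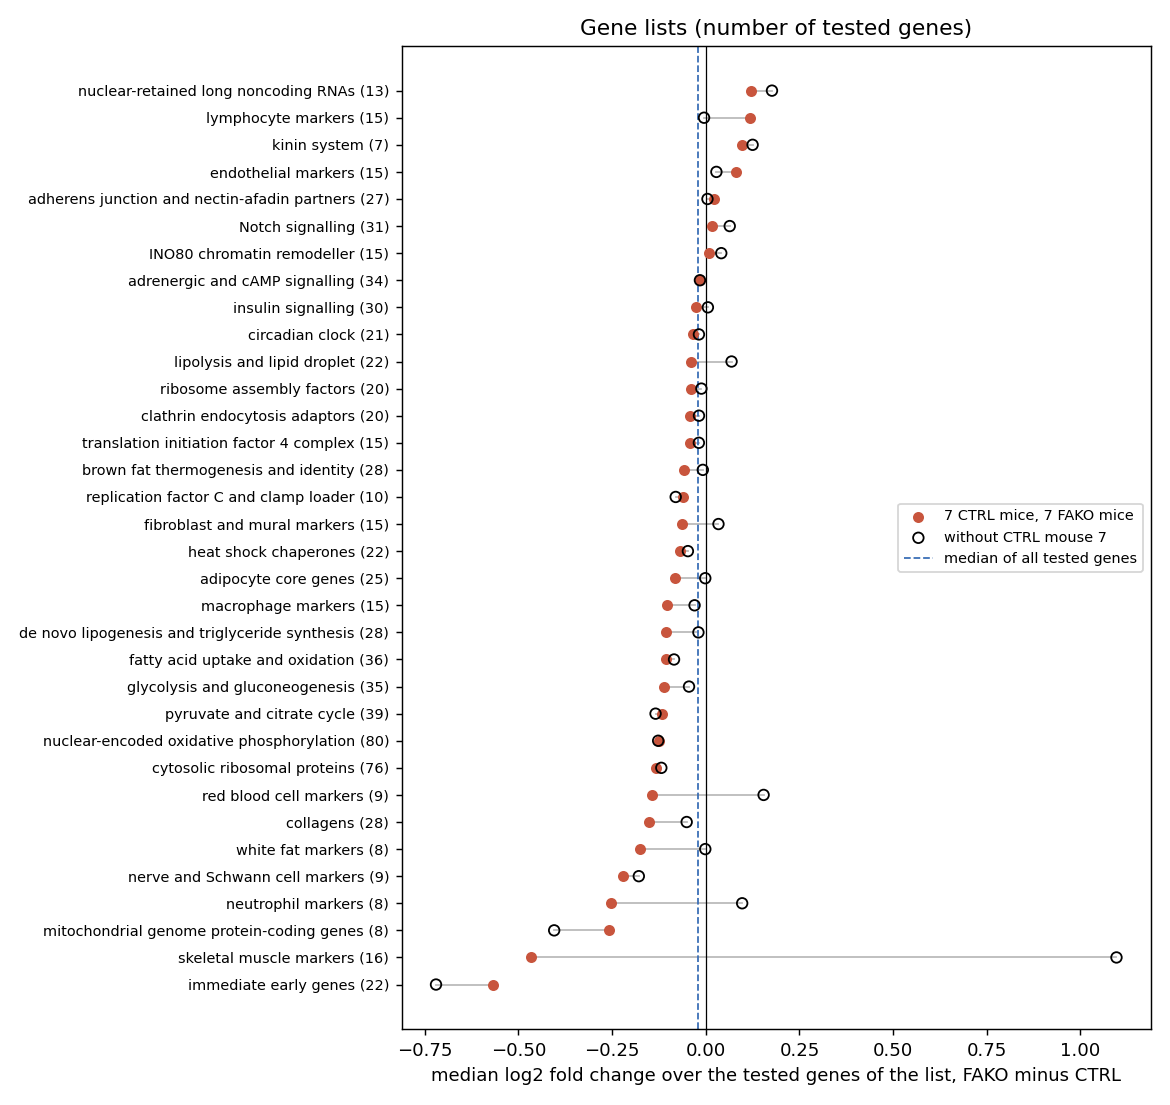
Median log2 fold change of mice labelled FAKO over CTRL mice for each list with at least 7 tested genes (number in brackets). Filled circles use all 14 mice, open circles leave out CTRL mouse 7, and the dashed line is the median of all tested genes at -0.020. Most lists lie within 0.2 of 0, immediate early genes are lowest at -0.57, and skeletal muscle markers move from -0.47 to 1.10 when CTRL mouse 7 is left out.

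Markers of other cell types gave no gene past the threshold. For the counts that follow, 7.65% of all tested genes had an unadjusted p below 0.05 in either direction, and 10.7% without CTRL mouse 7. Skeletal muscle genes varied the most, with summed levels of 25.7 to 13985 CPM in CTRL mice and 21.6 to 3897 CPM in those labelled FAKO, and 0 of 16 at an unadjusted p below 0.05. Their median was -0.47 with all mice and 1.10 without CTRL mouse 7, so that 1 mouse set its sign. Of 15 endothelial markers 3 were higher and 1 lower at that p. The receptor gene Kdr was higher without passing (0.27, SE 0.079, adjusted p = 0.302), and von Willebrand factor, Vwf, was lower without passing (-0.32, SE 0.11, adjusted p = 0.434). Macrophage markers had 0 higher and 1 lower of 15, lymphocyte markers 0 of 15 and collagen genes 0 higher and 2 lower of 28, among which Col1a1 had -0.65 (SE 0.32, adjusted p = 0.653) and -0.21 (SE 0.27, adjusted p = 0.860) without CTRL mouse 7. Without that mouse the medians of several cell type lists changed sign, from -0.14 to 0.15 for red blood cells, from -0.25 to 0.10 for neutrophils, from -0.063 to 0.034 for fibroblast and mural cells and from 0.12 to -0.0045 for lymphocytes, beside skeletal muscle. The counts became 1 higher and 0 lower for macrophages and 2 higher and 1 lower for collagens. At the same unadjusted p, fibroblast and mural markers had 0 higher and 1 lower of 15, nerve and Schwann cell markers 0 higher and 1 lower of 9, white fat markers 0 higher and 1 lower of 8, red blood cell markers 0 higher and 0 lower of 9, neutrophil markers 0 higher and 1 lower of 8 and liver and kidney genes 0 higher and 1 lower of 2. With CTRL mouse 7 left out, the fibroblast, white fat and neutrophil lists had 0 at that p. The part of these cells in the differences was not tested.

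The 14 genes were then followed in the 12 cold-exposed mice. Of the 14, 7 passed the threshold there, against 0.139% of all tested genes, and 4 of these had the same sign as at thermoneutrality, Kng1, Gm11868, Rfc4 and Eif4a2. The 3 others were higher at thermoneutrality and lower after cold. Ino80d was -0.35 (SE 0.058, adjusted p = 0.00609) after cold, Zfp871 -0.28 (SE 0.051, adjusted p = 0.0137) and Gm37474 -0.71 (SE 0.13, adjusted p = 0.0172). The difference between the temperatures was itself past the threshold for 8 of the 14 genes, against 1.16% of all tested genes. These were Ino80d, Zfp871, Gm37474, Tmem245, Gm44086, Necap1, Vaultrc5 and Sbds, and each of the 8 had opposite signs at the 2 temperatures. None of the 3 genes next to Adipoq was among them, with adjusted p of 0.481, 0.463 and 0.541 for Kng1, Eif4a2 and Rfc4. The genes were chosen by their value at thermoneutrality, which enters this difference, so that the 8 are a description and not a separate test of it.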

How the data were processed

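RNA-sequencing counts of BAT were used from 7 CTRL and 7 FAKO mice at thermoneutrality, grouped by the sample labels, with 12 cold-exposed mice in the same fit. The authors aligned 100-bp single-end stranded, rRNA-depleted reads to mm10 with STAR 2.5.2b, with gene counts from featureCounts 1.5.2 on GENCODE M13, per the submitters' processing notes and methods. The deposited values are counts without normalization. The reads were not used here. Of 50686 genes, 50462 had a symbol in GENCODE M21. The 17286 kept by filterByExpr were tested in R 4.3.3 with edgeR 4.0.16 (legacy quasi-likelihood, 1 term for each of the 4 groups, TMM, as the authors' edgeR 3.22.0 method), with limma 3.58.1 and DESeq2 1.42.0 for alternatives. Positions are from M21. All 42 pairs of mice within the 2 groups differed by more than sampling noise (lowest chi-square per gene 5.18). The labels number the mice in 1 series across groups and name no litters or cages, and p-values measure the spread between mice. Library measures were tested by exact two-sided permutation. On simulated counts for this comparison, with 200 of 16912 genes changed by a log2 fold change of 1, 199 were found with 13 others, and 95.3% of the intervals of unchanged genes held 0. This does not give the share found for smaller changes. Of the 14 genes past the threshold, 7 had an absolute log2 fold change under 0.5.

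The genes named are all past the threshold, Afdn, tested genes within 200 kb of Adipoq and Afdn, the extremes of each list (mean at or above 1 CPM) and preset brown fat genes, the 5 genes with the smallest p in each direction that did not pass, and Cyb5r4. Others were chosen after their values were seen. The 35 gene lists and the members were chosen with earlier results of these data known. The alternatives were DESeq2, other scalings and filters, the 14 mice alone, the revised and robust methods and leaving out each mouse in turn.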

Additional observations from a re-analysis of the deposited data

Results flagged for a closer look

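In groups of 7 mice, a highest or lowest mouse far from the rest was looked for, a test that chance alone meets in about 1 group of 20. CTRL mouse 7 was such a mouse for Afdn (151 CPM), Tmem245 (151 CPM), Necap1 (32.6 CPM), Sbds (36.5 CPM) and Neat1 (1016 CPM). It was also far from the other CTRL mice in its TMM factor (1.29), the share of counts in mitochondrial rRNA (8.99%), the share in all mitochondrial genes (14.3%) and the summed skeletal muscle markers (13985 CPM). CTRL mouse 5 had fewer total counts than the other CTRL mice (12706000 when rounded).

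For 8 of the genes past the threshold the log2 fold change differed between the temperatures by edgeR's quasi-likelihood test of the interaction. The difference, thermoneutrality minus cold, was 0.66 for Ino80d, 1.36 for Gm37474, 0.55 for Zfp871, 0.47 for Tmem245 and 0.99 for Gm44086. It was -0.32 for Necap1, -0.72 for Vaultrc5 and -0.33 for Sbds, with adjusted p from 0.000122 to 0.0327.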

How the results depend on the processing

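No analysis paired by litter was possible because the labels name no litters, and litter is not part of the model. All 14 genes kept their direction in each of the 22 alternatives. Kng1, Gm11868, Rfc4, Sh3bgrl2, Ino80d, Gm37474 and Eif4a2 passed in all 14 fits that left out a mouse, Zfp871 in 13, Tmem245 in 9, Gm44086 in 8, Gm38315 in 5, Vaultrc5 in 4, Necap1 in 2 and Sbds in 1. The count of 14 genes (10 higher, 4 lower) became 42 (33 and 9) with DESeq2, 34 (34 and 0) with library size alone as the scaling, 9 (8 and 1) with no filter, 14 (13 and 1) with upper-quartile factors, 14 (13 and 1) with the 14 mice alone and 12 (10 and 2) with robust empirical Bayes. The genes past the threshold were not always the same. Of the 14 genes of the main fit, 8 passed with the 14 mice alone and 11 with upper-quartile factors. With library size alone 9 of them passed, with no filter 9, with robust empirical Bayes 12 and with DESeq2 14. With 1 mouse left out the count of genes past the threshold ran from 7 (6 higher, 1 lower) without CTRL mouse 2 to 93 (62 and 31) without CTRL mouse 7, and without CTRL mouse 3 or 6 or FAKO mouse 13 it was 9, 8 and 9. The 8 differences between temperatures became 5 with library size alone and 4 with no filter, and ran from 5, without FAKO mouse 8, to 8 with a mouse left out. The log2 fold change of Afdn stayed near 0 with changes of sign, at 0.0052 with the 14 mice alone, 0.15 with library size alone, 0.0039 with no filter and 0.021 with upper-quartile factors, and from -0.048 to 0.056 with a mouse left out. Library size alone moved the median of all genes from -0.020 to 0.13, and the direction of small shared differences follows that choice. The cause of the other changes was not tested. The depth of 12705969 to 18262061 counts leaves wide intervals for scarce genes.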
